A study of Mus musculus with 2 samples.

Results

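Gamma-delta T cells of the mouse liver were chosen from raw counts of UMIs (unique molecular identifiers, tags that mark single RNA molecules) in 1 wild-type and 1 knockout library. A barcode counted as a kept cell when 200 or more genes were detected and no more than 20% of its UMIs were mitochondrial. A kept cell was a member when it held at least 2 UMIs over Cd3d, Cd3e and Cd3g, at least 2 UMIs of Trdc, no UMI of Cd4, and at most 1 UMI over Cd8a and Cd8b1. It also had at most 1 UMI over Cd79a, Cd79b and Ms4a1 and at most 5 over C1qa, C1qb and C1qc. Of 24093 kept cells, 95 met the rule, 38 among 11370 wild-type and 57 among 12723 knockout cells. The genes of the rule chose the cells, so their levels are given only as a description.

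The libraries came from non-parenchymal cells, the liver cells other than hepatocytes, of Mfap2+/+ mice (wild type) and Mfap2-/- mice (knockout). Both groups had received CCl4, a hepatotoxin that causes liver fibrosis, by injection into the peritoneum for 8 weeks, and no untreated animal was analysed here. The product of Mfap2 is a microfibril-associated glycoprotein of the extracellular matrix. The labels give neither the number, age or strain of the animals nor the tissues in which Mfap2 was lost, and genotype, animal and library preparation cannot be told apart with 1 library each.

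Gamma-delta T cells carry a T cell receptor built from a gamma and a delta chain in place of the alpha and beta chains of CD4 and CD8 T cells. Many of them leave the thymus already committed to a cytokine: type 17 cells release interleukin 17A, whereas type 1 cells depend on T-bet, encoded by Tbx21, and release interferon gamma and cytotoxic granules. Type 17 gamma-delta cells respond to interleukin 23 and interleukin 1 and reside in barrier tissues and in the liver.

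The promoters of 3 type 17 genes and of Ifng are shown because AGGTCA is the half-site that many nuclear receptors recognise, Rora of the type 17 list among them, so that it can be seen which of these windows hold it. Each window is 300 bases of RefSeq sequence on GRCm38.p6, from 250 bases before a RefSeq transcript start to 50 after it, written 5′ to 3′ on the gene's strand. Capitals mark AGGTCA or its reverse complement TGACCT. Il17a lies at chr1:20730655-20730954 on the forward strand, Il17f at chr1:20784221-20784520 on the reverse strand, Il23r at chr6:67491806-67492105 on the reverse strand and Ifng at chr10:118440796-118441095 on the forward strand. The Il17f window lies inside the gene as GENCODE M21 annotates it, whose start is at 20790617.
Il17a: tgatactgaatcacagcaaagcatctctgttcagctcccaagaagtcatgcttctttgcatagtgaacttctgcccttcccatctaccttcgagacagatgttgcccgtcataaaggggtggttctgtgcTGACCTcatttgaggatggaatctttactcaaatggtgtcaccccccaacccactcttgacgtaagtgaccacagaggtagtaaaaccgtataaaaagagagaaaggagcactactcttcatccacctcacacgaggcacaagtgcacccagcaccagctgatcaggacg
Il17f: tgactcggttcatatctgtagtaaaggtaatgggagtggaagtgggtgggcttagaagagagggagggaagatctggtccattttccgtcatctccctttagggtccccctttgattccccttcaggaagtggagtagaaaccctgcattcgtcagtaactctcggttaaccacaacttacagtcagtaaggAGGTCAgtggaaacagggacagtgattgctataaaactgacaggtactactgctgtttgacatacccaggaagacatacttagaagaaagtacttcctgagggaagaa
Il23r: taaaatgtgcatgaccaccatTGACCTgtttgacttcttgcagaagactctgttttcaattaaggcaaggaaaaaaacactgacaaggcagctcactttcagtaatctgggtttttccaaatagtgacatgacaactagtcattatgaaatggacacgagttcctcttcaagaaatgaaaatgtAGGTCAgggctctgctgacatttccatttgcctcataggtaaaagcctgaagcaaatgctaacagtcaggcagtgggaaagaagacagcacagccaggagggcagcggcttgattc
Ifng: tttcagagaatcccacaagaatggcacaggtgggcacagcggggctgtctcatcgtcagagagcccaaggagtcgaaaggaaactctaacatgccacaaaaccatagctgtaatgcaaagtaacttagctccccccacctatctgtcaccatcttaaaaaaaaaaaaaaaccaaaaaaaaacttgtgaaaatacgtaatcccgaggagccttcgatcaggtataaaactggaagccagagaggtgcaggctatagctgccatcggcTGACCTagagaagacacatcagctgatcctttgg
The match began 120 bases before the start site in Il17a, 58 before it in Il17f, 229 and 66 before it in Il23r, and 17 after it in Ifng. Of 32851 promoters of this length, 5340 (16.3%) held the core on either strand. The core was present in 7 of the 22 promoters of type 17 list genes (31.8%) and in 2 of the 20 promoters of type 1 list genes. A match is a description of the letters and not evidence of binding.

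The knockout library was deeper, with a median of 6511 UMIs per barcode against 4685 in the wild type, a ratio of 1.39. Mfap2 had 257 UMIs over kept wild-type cells and 4 over kept knockout cells, and none in the members. The libraries shared 40 barcodes, 1 of them a member's. The summed UMIs of the members were 222440 (wild type) and 375424 (knockout), with medians of 5647.5 (2410 to 13318) and 6556.0 (2216 to 14585) UMIs per cell. Levels below are CPM, counts per 1000000 of the UMIs summed over a library's cells of 1 kind. Brackets after a level, share or ratio hold its 95% interval, which covers counting error only, and no test between the libraries is possible. Ratios have 1 count added to each sum.

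Gamma-delta T cells made up 0.334% of kept wild-type cells (0.237 to 0.458) and 0.448% of kept knockout cells (0.339 to 0.580). The log2 ratio of knockout over wild type was 0.42 (-0.19 to 1.05), an interval that includes 0. Among cells with Cd3 transcripts the members were 38 of 652 (5.83%) and 57 of 721 (7.91%), a log2 ratio of 0.44 (-0.18 to 1.07). With the knockout library thinned to the wild-type depth, this ratio was 0.15. CD4 T cells went from 0.396% to 0.857% of kept cells, a log2 ratio of 1.11 (0.60 to 1.65). Cells with Ncr1 and no Cd3 transcripts, which are natural killer (NK) cells and type 1 innate lymphoid cells (ILC1), went from 3.69% to 1.73%, a log2 ratio of -1.10 (-1.34 to -0.86).

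The delta constant gene Trdc (chromosome 14, 54142851 to 54148868 on GRCm38, overlapped on the opposite strand by Trdv5 and Gm43434), which chose the cells, had 2 to 14 UMIs per wild-type member with a median of 3, and 2 to 26 per knockout member with a median of 5. At the threshold, 12 wild-type and 16 knockout members held exactly 2 Trdc UMIs, while 17 and 13 cells met every other condition with 1 UMI and remained outside. Of the latter, 13 of 17 and 7 of 13 held a gamma constant UMI. A further 376 wild-type and 358 knockout cells met every other condition with no Trdc UMI, and 28.2% and 17.9% of them held a gamma constant UMI. These cells are not among the kinds of cell compared below. Members held 162 of the 324 Trdc UMIs in kept wild-type cells and 324 of 584 (55.5%) in kept knockout cells. Of the others, 29 and 21 lay in other cells with Cd3 transcripts, 19 and 21 in NK and ILC1 cells, and 114 and 218 in the remaining cells.

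The gamma constant genes, which the rule did not use, were detected in most members. At least 1 UMI of Tcrg-C1, Tcrg-C2 or Tcrg-C4 was present in 22 of 38 wild-type members (57.9%, 40.8 to 73.7) and in 46 of 57 knockout members (80.7%, 68.1 to 89.9). The share was 13.3% and 5.50% in CD4 T cells, 15.7% and 28.6% in CD8 T cells, and 0.649% and 1.32% in B cells, which should lack these transcripts and had medians of 3577.5 and 4858.0 UMIs. NK and ILC1 cells held such a UMI in 33.8% and 36.4% of cells, in the knockout mostly of Tcrg-C4 (32.7%), so a Tcrg-C4 UMI is not particular to the members. Tcrg-C1 stood at 98.9 CPM in wild-type and 139 CPM in knockout members, against 13.7 and 6.52 CPM in NK and ILC1 cells. Tcrg-C1 and Tcrg-C2 are near-identical copies, and how their shared reads were counted is not given in the sources used here.

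Alpha and beta chain transcripts were not absent. Trac, the alpha constant gene, had a UMI in 10 of 38 wild-type members (26.3%, 13.4 to 43.1) and in 6 of 57 knockout members (10.5%, 3.96 to 21.5). CD4 T cells held one in 66.7% and 80.7% of cells. A Trbc1 or Trbc2 UMI was present in 31 of 38 and 56 of 57 members, and the members' Trbc2 level was 1.05 and 1.21 log2 units above that of NK and ILC1 cells. The NK genes Ncr1 or Eomes were detected in 7 of 38 (18.4%) and 15 of 57 members (26.3%). Members with Trac, Ncr1 or Eomes UMIs met the rule and were kept. Only some of the results that differ without them are given with both values.

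**Figure D1:**
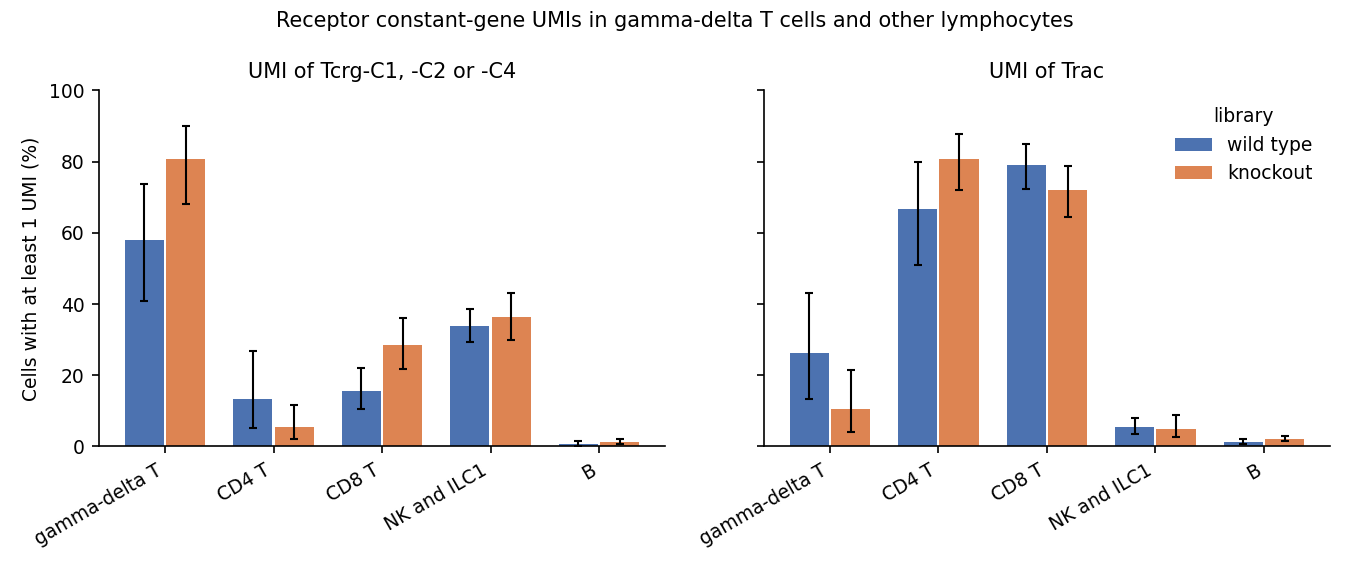
Percentage of cells with at least 1 UMI of a gamma constant gene (left) or of Trac (right) in 5 kinds of lymphocyte, wild type in blue and knockout in orange. Bars show the share in 1 library and lines its 95% Clopper-Pearson interval. Members hold a gamma constant UMI more often (57.9% and 80.7%) and a Trac UMI less often (26.3% and 10.5%) than CD4 or CD8 T cells do.

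Among variable gene segments, Trgv2 had 9 UMIs in 8 wild-type members and 25 UMIs in 20 knockout members. Trdv4 had 6 UMIs in 5 wild-type members and 28 UMIs in 13 knockout members (74.6 CPM in the knockout). NK and ILC1 cells held Trdv4 at 15.1 and 14.8 CPM and CD8 T cells at 0.927 CPM in the wild type. Tcrg-V1 had 0 UMIs in wild-type members, which allows up to 13.5 CPM, and 11 UMIs in 8 knockout members (29.3 CPM). Libraries that tag the 3′ end read the variable segments poorly, so these counts do not give the share of cells that use a segment.

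Members differed from CD4 and CD8 T cells of the same library in type 17 genes, among many others. Among genes with at least 20 UMIs over the cells compared, 1.99% of 7249 were at least 2-fold higher in members than in CD4 T cells in both libraries, and 2.54% at least 2-fold lower. Against CD8 T cells these shares were 3.17% and 1.13% of 9009 genes, and against NK and ILC1 cells 3.83% and 1.94% of 10513 genes. Of the 19 genes of the type 17 list, 9 of 14 with enough UMIs were 2-fold higher than in CD4 T cells in both libraries, 12 of 12 than in CD8 T cells and 8 of 14 than in NK and ILC1 cells. The list's median log2 ratio was 2.92 (wild type) and 1.18 (knockout) over CD4 T cells, 3.59 and 3.64 over CD8 T cells, and 4.24 and 3.07 over NK and ILC1 cells. Because a type 17 gene can reach the UMI minimum through the members alone, these counts describe the list and are not a test of it.

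Il17a (chromosome 1, 20730905 to 20734496), which encodes interleukin 17A, stood at 1043 CPM in wild-type members (232 UMIs) and at 762 CPM in knockout members (286 UMIs). In CD4 T cells it stood at 42.4 and 105 CPM. In CD8 T cells it had 0 and 1 UMIs and in NK and ILC1 cells 1 and 1 UMIs. Members held 57.6% of all Il17a UMIs of the wild-type library (52.6 to 62.4) and 36.7% of those of the knockout library (33.3 to 40.2). The transcript was concentrated, with 9 of 38 and 14 of 57 members positive and 60.8% and 57.7% of its UMIs in the 2 richest cells. Il17f, which encodes the related interleukin 17F, had 11 UMIs in 1 wild-type member and 3 UMIs in 1 knockout member.

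Il23r, which encodes the interleukin 23 receptor, stood at 211 CPM in wild-type and 232 CPM in knockout members. CD4 T cells had 0 Il23r UMIs in the wild type, which allows up to 11.6 CPM, and 54.1 CPM in the knockout. Members held only 47 and 87 Il23r UMIs, 16.2% and 14.6% of those in kept cells. Other cells with Cd3 transcripts held 99 and 222, so Il23r was not particular to the members. Il1r1, the signalling receptor of interleukin 1, stood at 270 and 424 CPM in members, at 3.86 and 180 CPM in CD4 T cells, and at 14.4 and 17.2 CPM in NK and ILC1 cells. Both receptors thus separated members from CD4 T cells more widely in the wild-type library, where only 45 CD4 T cells were available, than in the knockout library with 109.

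Blk, a Src-family kinase known from B cells and from type 17 gamma-delta cells, stood at 207 CPM in wild-type and 301 CPM in knockout members, against 8.34 and 12.6 CPM in CD8 T cells. Cd163l1 and 5830411N06Rik, which encode scavenger receptors of the SCART family and lie next to each other on chromosome 7, stood at 184 and 130 CPM in wild-type and at 210 and 69.3 CPM in knockout members. Both had 0 UMIs in CD4 T cells of either library, which allows up to 11.6 CPM in the wild type and 4.38 CPM in the knockout. All cells with Cd3 transcripts other than members held 17 (wild type) and 21 (knockout) Cd163l1 UMIs, where members held 41 and 79. For 5830411N06Rik these cells held 28 and 33 UMIs, and members 29 and 26. In the wild type 7 members held Cd163l1 alone, 9 held 5830411N06Rik alone and 1 held both, and in the knockout these numbers were 11, 6 and 2. This pair was examined after its values were seen, and the overlap was not tested.

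Genes outside the type 17 list were also higher in members than in CD4 and CD8 T cells. Genes with the largest excess over CD4 and CD8 T cells in both libraries were Abi3bp, Cd163l1, Blk, Tcrg-C1, St3gal3, Il17a, Adam12, Ppp1r14c, Clnk, Il23r, Pard3, Atrnl1, Lmna and Wls. Abi3bp, which encodes an extracellular matrix protein, stood at 198 and 160 CPM in members and at 0.927 and 0.788 CPM in CD8 T cells. In the whole libraries only 4.69% and 3.70% of its UMIs lay in members, since other liver cells express it. Adam12, a metalloprotease, stood at 130 and 194 CPM in members and at 1.85 and 1.58 CPM in CD8 T cells. Members held 4.14% and 3.91% of the Adam12 UMIs in kept cells. Ppp1r14c, a phosphatase inhibitor, stood at 94.4 and 112 CPM in members and had 0 and 1 UMIs in CD8 T cells. Members held 21 and 42 Ppp1r14c UMIs, 37.5% and 20.3% of those in kept cells. All other cells with Cd3 transcripts held 47 and 84 Adam12 UMIs and 11 and 103 Ppp1r14c UMIs, so neither gene was particular to the members. The reads of Adam12, St3gal3, Clnk and Atrnl1 cannot be told apart here from those of genes that overlap them, since the counting of overlaps is not given in the sources used here.

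Against NK and ILC1 cells the 10 leading genes were Il17a, Ppp1r14c, Cd163l1, Abi3bp, Cpm, Pard3, Il23r, Blk, Adam12 and Il1r1. Cpm, which encodes the membrane carboxypeptidase M, stood at 1227 and 1348 CPM in members and at 15.1 and 32.0 CPM in NK and ILC1 cells. CD4 T cells of the knockout held it at 744 CPM and B cells at 1239 and 1379 CPM, so Cpm was not particular to the members among lymphocytes.

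Type 1 and cytotoxic genes were mostly lower in members than in NK and ILC1 cells and mostly higher than in CD4 T cells. Of 21 listed genes with enough UMIs 14 were higher than in CD4 T cells in both libraries, 5 of them at least 2-fold, with a median log2 ratio of 0.22 (wild type) and 1.5 (knockout). Over all 7249 genes with enough UMIs, 2055 were higher than in CD4 T cells in both libraries and 144 at least 2-fold higher. Ifng, which encodes interferon gamma, stood at 400 and 341 CPM in members, 498 and 310 CPM in CD8 T cells, and 597 and 474 CPM in NK and ILC1 cells. Ccl5, a chemokine of cytotoxic lymphocytes, stood at 4010 and 5010 CPM in members and at 7727 and 6819 CPM in CD8 T cells. Of the 22 listed genes 17 of 21 with enough UMIs were lower in members than in NK and ILC1 cells in both libraries. The list's median log2 ratio of members over these cells was -0.84 (wild type) and -0.50 (knockout). Over all 10513 genes with enough UMIs, 2474 were lower than in NK and ILC1 cells in both libraries.

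**Figure D2:**
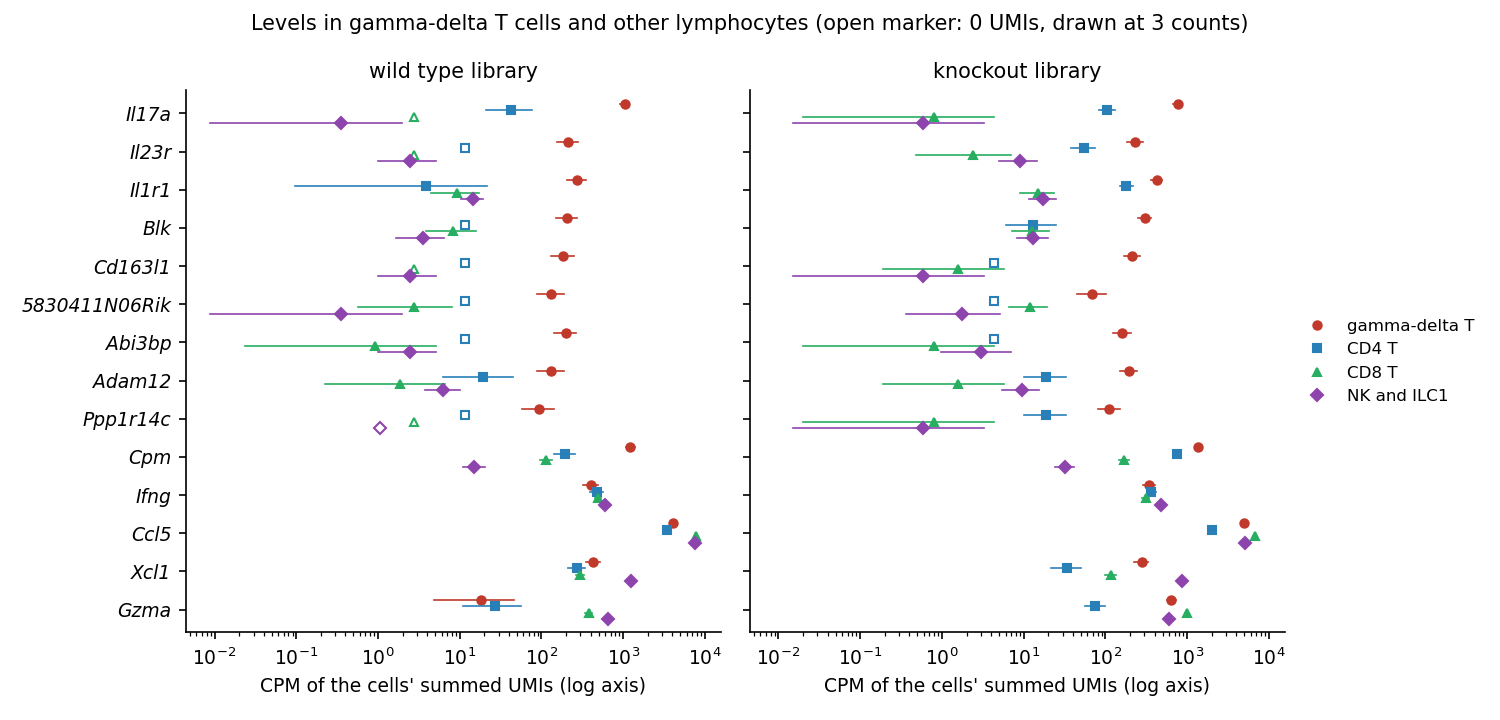
Level of 14 genes, in CPM on a log axis, in gamma-delta T cells (red circles), CD4 T cells (blue squares), CD8 T cells (green triangles) and NK and ILC1 cells (purple diamonds) of the wild-type (left) and knockout library (right). Lines are 95% Poisson intervals, and open markers stand at the limit that 3 counts set where the count was 0. Il17a is at 1043 and 762 CPM in the gamma-delta cells and far lower in the other kinds, while Ifng lies between 310 and 597 CPM in all 4 kinds and both libraries.

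Single members fell into those with and those without type 17 transcripts. A type 17 score, the summed UMIs of Il17a, Il17f, Il23r, Il1r1, Ccr6, Blk, Sox13, Cd163l1 and 5830411N06Rik, was 0 or 1 in 18 wild-type and 33 knockout members. No member of either library had a score of 2, and 3 wild-type and 0 knockout members had a score of 3 or 4. The score was 5 or more in the remaining 17 wild-type and 24 knockout members. At a score of at least 2, 20 of 38 wild-type members (52.6%, 35.8 to 69.0) and 24 of 57 knockout members (42.1%, 29.1 to 55.9) were positive. In CD8 T cells, whose median depths of 5861.5 and 7097.0 UMIs were above those of the members, 1.16% and 4.17% were positive. In CD4 T cells the shares were 2.22% and 21.1%, in NK and ILC1 cells 2.14% and 5.45%, and in B cells, which express Blk, 54.0% and 69.8%.

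The order of the libraries in this share was not stable. After each cell was thinned to 1000 UMIs, 26.3% of wild-type and 36.8% of knockout members were positive, so the knockout share was the lower before thinning and the higher after it. No order of the libraries is read from these shares. Thinned CD8 T cells were positive in 0 of 172 wild-type cells, which allows up to 1.74%, and in 1 of 168 knockout cells (0.595%). Thinned CD4 T cells were positive in 0 of 45 and 12 of 109 cells, and thinned B cells in 15.6% and 19.5%.

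Type 17 and type 1 transcripts divided the members in opposite ways in both libraries. The type 1 score sums Tbx21, Ifng, Il2rb, Nkg7, Ccl5, Gzma, Gzmb, Klrd1, Klrk1 and Xcl1 and shares no gene with the type 17 score. Its median was 5 UMIs in the 20 wild-type cells with the type 17 score and 69 in the 18 without it. In the knockout the medians were 6.5 in 24 cells and 72 in 33 cells. At least 10 type 1 UMIs were found in 3 of 20 and 6 of 24 cells with the type 17 score and in 16 of 18 and 31 of 33 without it. Cells with the score had fewer UMIs in all, with medians of 4827.0 and 5656.5 against 5842.0 and 6804.0, a gap far smaller than that in the type 1 score. Il17a and Ifng were found together in 0 wild-type and 3 knockout members, and every Il17a-positive member of both libraries (9 of 9 and 14 of 14) also held Blk. The comparison by this score was chosen after its distribution was seen.

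**Figure D3:**
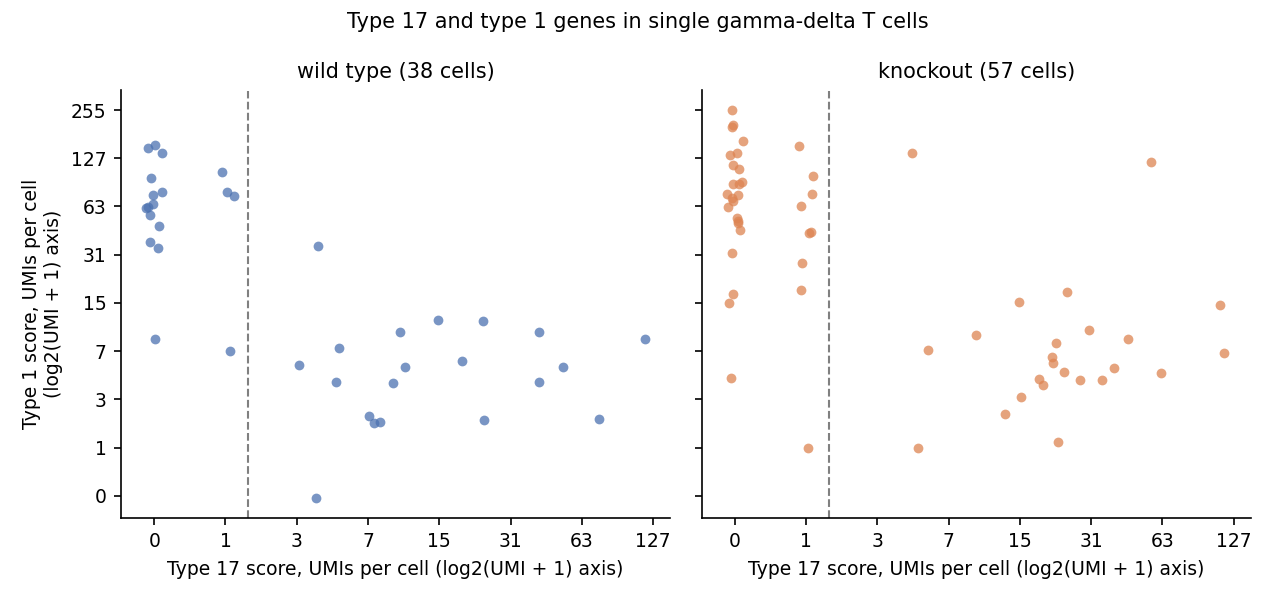
Summed UMIs of 9 type 17 genes (horizontal) and of 10 type 1 genes (vertical) in each gamma-delta T cell, on log2(UMI + 1) axes with small random offsets, wild type on the left and knockout on the right. The dashed line divides scores of 0 or 1 from scores of 2 or more. Cells with the type 17 score lie low on the type 1 axis (medians of 5 and 6.5 UMIs), and most cells without it lie high (69 and 72 UMIs).

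Genes outside both scores followed the division in both libraries. Icos, a costimulatory receptor, stood at 813 CPM in wild-type cells with the type 17 score and at 93.3 CPM in those without it, and in the knockout at 1023 and 116 CPM. Il7r, the interleukin 7 receptor, stood at 746 and 153 CPM in the wild type and at 1063 and 138 CPM in the knockout. Cxcr6, a chemokine receptor of liver-resident lymphocytes, was detected in 14 of 20 cells with the score and in 2 of 18 without it in the wild type, and in 17 of 24 and 7 of 33 in the knockout. Zbtb16, which encodes the innate T cell factor PLZF, stood at 230 and 67.9 CPM in the wild type and at 482 and 170 CPM in the knockout. Areg, which encodes the growth factor amphiregulin, was found in 6 of 20 and 0 of 18 wild-type cells and in 7 of 24 and 3 of 33 knockout cells.

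Maf, Rora, Tmem176a and Tmem176b, which are in the type 17 list but not in the score, were also higher in the cells with the score. Rora, an orphan nuclear receptor, stood at 1798 and 246 CPM in the wild type and at 2911 and 380 CPM in the knockout. Adam12 was detected in 8 of 20 and 1 of 18 wild-type cells and in 16 of 24 and 0 of 33 knockout cells. Cpm stood at 2305 and 271 CPM in the wild type and at 3307 and 22.3 CPM in the knockout. Abi3bp stood at 411 and 8.48 CPM in the wild type and at 383 and 8.93 CPM in the knockout. Abi3bp and Adam12, which set members apart from CD4 and CD8 T cells, and Cpm were thus mostly carried by the cells with the score. Cd163l1, Blk, Il17a and Il23r are summed in the score, so for them this was fixed in advance. The other genes named against T cells are not given here by score.

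Cells without the score were higher in Il12rb2, Lck and Ctsw. Il12rb2, a chain of the interleukin 12 receptor, stood at 874 CPM in wild-type cells without the score and at 19.1 CPM in those with it, and in the knockout at 1049 and 106 CPM. Lck, the kinase that starts T cell receptor signalling, was detected in 14 of 18 and 2 of 20 wild-type cells and in 30 of 33 and 2 of 24 knockout cells. The list of NK markers summed to 1764 CPM without and 794 CPM with the score in the wild type, and to 1563 and 555 CPM in the knockout. Ncr1 or Eomes was detected in 7 of 18 and 12 of 33 cells without the score and in 0 of 20 and 3 of 24 cells with it. The part of NK cells in this division was not tested. Immediate early genes, among them Fos, Junb and Dusp1, summed to 33143 CPM with and 16625 CPM without the score in the wild type, and to 26143 and 16508 CPM in the knockout.

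Receptor transcripts were compared between the 2 sets of cells. Tcrg-C4 without Tcrg-C1 or Tcrg-C2 was found in 1 of 20 wild-type cells with the score and 5 of 18 without it, and in 1 of 24 and 7 of 33 knockout cells. Trdv4 was found in 4 of 20 and 1 of 18 wild-type cells and in 10 of 24 and 3 of 33 knockout cells. A Trac UMI was found in 6 of 20 and 4 of 18 wild-type cells and in 1 of 24 and 5 of 33 knockout cells. The intervals of these shares overlap between the sets in the wild type. In the knockout those of Trdv4 overlap narrowly, at 22.1% to 63.4% with the score and 1.92% to 24.3% without it.

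Between the libraries, 4343 genes had at least 20 UMIs over the members. Of these, 319 (7.35%) were at least 2-fold higher and 169 (3.89%) at least 2-fold lower in the knockout library, 55.8% were higher at all, and the median log2 ratio was 0.08. The same shares were 7.25% and 4.05% in CD4 T cells, 4.63% and 2.44% in CD8 T cells, and 4.97% and 2.08% in NK and ILC1 cells. With 38 and 57 cells of 1 library each, these are differences between 2 sets of cells and not between genotypes. A UMI minimum of 50 left 105 and 24 such genes, and thinning each member to 1000 UMIs left 63 and 36. The minimum holds for both libraries together, so a gene can reach it through the library where it is high. The counts for gene lists between libraries therefore describe the lists and are not a test of them.

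Type 17 genes showed no common direction. Of the 19 listed genes 11 had enough UMIs, 6 of them higher and 5 lower in the knockout library and none by 2-fold, with a median log2 ratio of 0.12 (-0.39 to 0.68). For a list, the bracket holds the medians of its genes' lower and upper bounds. Il17a was lower in the knockout library by the sum over members, with a log2 ratio of -0.45 (-0.71 to -0.20). Without the 5 richest members of each library the ratio was 0.36 (-0.34 to 1.16), and without the members that Scrublet scored as likely doublets it was 0.23, so its direction rests on a few cells. Il1r1 had a log2 ratio of 0.64 (0.21 to 1.10), Il23r of 0.12 (-0.39 to 0.68) and 5830411N06Rik of -0.91 (-1.73 to -0.10). Blk had a ratio of 0.52 (0.03 to 1.07), which was -0.58 after thinning.

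Type 1 genes also lay on both sides. Of 22 listed genes 21 had enough UMIs, 10 of them higher and 11 lower in the knockout library, 3 of them at least 2-fold higher and 0 at least 2-fold lower, with a median log2 ratio of -0.03 (-0.46 to 0.44). Gzma, which encodes the serine protease granzyme A, had the highest ratio by the naming rule. It had 4 UMIs in 4 wild-type members (18.0 CPM) and 241 UMIs in 10 knockout members (642 CPM), a log2 ratio of 4.84 (3.78 to 7.05). Of the knockout UMIs 56.4% lay in 2 cells and 89.2% in 5, and without the 5 richest members of each library the ratio was 3.83. Gzma also had a log2 ratio of 1.38 in CD8 T cells (378 and 988 CPM) and of -0.12 in NK and ILC1 cells (654 and 601 CPM). The members' level thus lay near that of NK and ILC1 cells in the knockout library and far below it in the wild-type library.

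Tbx21, the gene of T-bet, had 24 UMIs in 11 wild-type members and 84 UMIs in 31 knockout members, a log2 ratio of 1.01 (0.38 to 1.77), which was 0.29 after thinning. Ccl5 had a ratio of 0.32 (0.21 to 0.44) and Xcl1, a chemokine of cytotoxic lymphocytes, of -0.64 (-1.05 to -0.22). Ifng had a ratio of -0.24 (-0.63 to 0.18), which was 0.74 with at most 1 alpha-beta constant UMI per member and 0.26 without members that held Ncr1 or Eomes. Without the 5 richest members of each library Xcl1 had -0.12. Only 2 of the 10 members with Gzma UMIs in the knockout held Il17a.

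Beside Gzma, the genes highest in the knockout library by the naming rule were Lef1, Ifit1, Mlxip, Gatad2b, Tnfrsf9, Wwox, Fbxw7, Nab1 and Slc5a3. Lef1, a transcription factor of naive T cells, had 21 UMIs in 9 wild-type members (94.4 CPM) and 149 UMIs in 32 knockout members (397 CPM), a log2 ratio of 2.01 (1.41 to 2.81). Its ratio was 1.26 in CD4 T cells, 0.52 in CD8 T cells and 0.42 in NK and ILC1 cells. Tnfrsf9, the costimulatory receptor 4-1BB, had 17 UMIs in 11 wild-type members and 81 UMIs in 24 knockout members, a ratio of 1.43 (0.73 to 2.35). Without members that held Ncr1 or Eomes it was 0.70. The ratios of Mlxip, Gatad2b, Wwox, Fbxw7, Nab1 and Slc5a3 lay between 1.36 and 1.55. With at most 1 alpha-beta constant UMI per member Mlxip had 0.25 and Fbxw7 0.35, and with members thinned to 1000 UMIs Wwox had 0.68 and Nab1 0.55. Lef1, Tnfrsf9, Mlxip, Gatad2b, Wwox, Fbxw7 and Slc5a3 overlap other genes, on the opposite strand or, for Slc5a3, on the same strand, and how such reads were counted is not given in the sources used here.

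**Figure D4:**
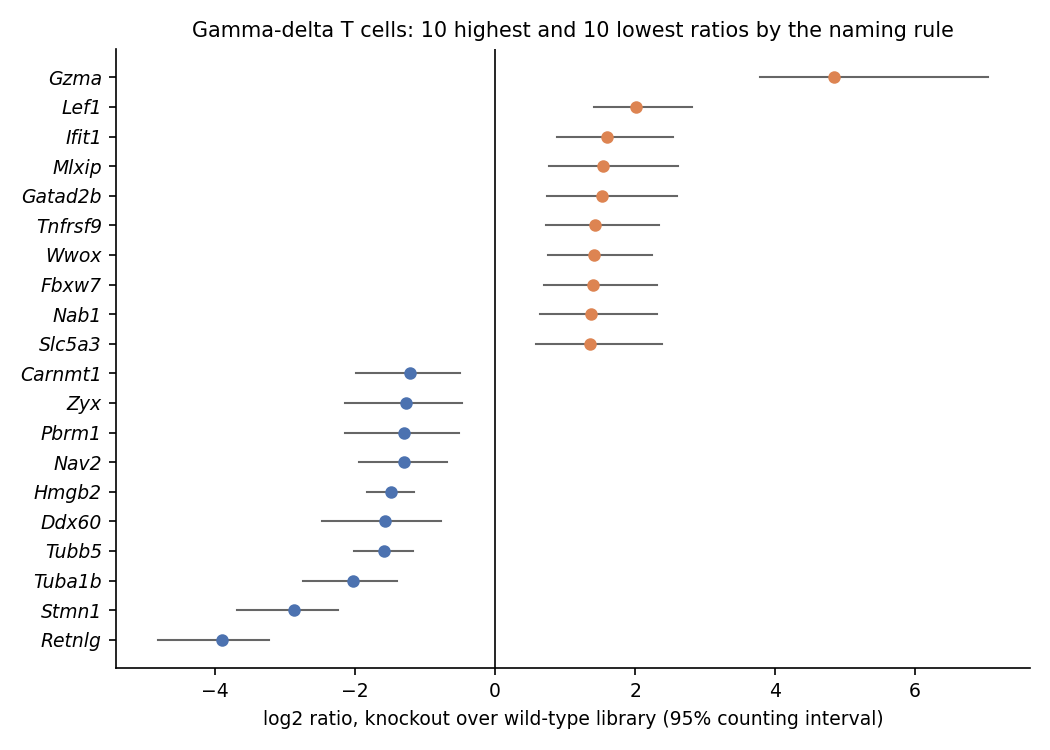
Log2 ratio of knockout over wild type in the summed UMIs of gamma-delta T cells for the 10 highest (orange) and 10 lowest (blue) genes by the naming rule. Lines are 95% counting intervals with no replicate behind them. Gzma is farthest to the right at 4.84 and Retnlg farthest to the left at -3.90.

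All 12 heat shock genes were higher in the knockout library, 2 of them at least 2-fold, with a median log2 ratio of 0.41 (0.24 to 0.88). Hspa1a, an inducible chaperone, stood at 778 CPM in 31 of 38 wild-type members and at 1667 CPM in 56 of 57 knockout members, a ratio of 1.09 (0.86 to 1.35). Hspd1, the mitochondrial chaperonin, stood at 135 and 354 CPM, a ratio of 1.36 (0.81 to 2.02), and Dnaja1, a co-chaperone, at 1209 and 1984 CPM (0.71, 0.51 to 0.92). Hspa1a and Hspa1b are near-identical, and the split of their reads is uncertain. The same 12 genes were all higher in CD4 T cells (median 0.63), CD8 T cells (0.46), NK and ILC1 cells (0.66) and B cells (0.99) of the knockout library, so the difference was not particular to gamma-delta T cells.

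Interferon response genes were mostly higher in the knockout library. Of 21 genes with a row 12 had enough UMIs, 9 of them higher and 3 lower and 4 at least 2-fold higher, with a median log2 ratio of 0.76 (-0.22 to 2.28). Ifit1, an RNA-binding antiviral protein, had 16 UMIs in 4 wild-type members and 86 UMIs in 16 knockout members (71.9 and 229 CPM), a ratio of 1.60 (0.89 to 2.54). Oasl1, an antiviral protein of the oligoadenylate synthetase family, had a ratio of 1.44 (0.65 to 2.51). Ifit2 had 2 and 25 UMIs (2.36, 0.89 to 6.01) and Rsad2 1 and 19 UMIs (2.57, 0.84 to 8.87), which thinning lowered to 0.42 and 0.74. Both reached the UMI minimum almost wholly through the knockout library, and both are among the 4 genes at least 2-fold higher. In the knockout this list summed to 871 CPM in cells with the type 17 score and to 1902 CPM in those without it, whereas in the wild type the sums were 1033 and 806 CPM. The list's median ratio was 0.45 in CD4 T cells, 0.28 in CD8 T cells and 0.61 in NK and ILC1 cells.

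Immediate early genes, which are induced within minutes of stimulation and also by tissue dissociation, had 5 genes higher and 9 lower of 14 and a median of -0.12 (-0.33 to 0.09). Jund had a log2 ratio of -0.76 (-0.93 to -0.58), Junb of -0.46 (-0.59 to -0.33) and Dusp1 of -0.46 (-0.62 to -0.31), while Egr1 had 0.54 (0.12 to 0.99). Of the 16 cytokine and growth factor genes 7 had enough UMIs, 1 higher and 6 lower. Of the 14 receptor signalling genes 5 were higher and 9 lower, with Cd247, the zeta chain of the T cell receptor complex, at 0.77 (0.38 to 1.21) and Thy1, a surface glycoprotein of T cells, at -0.93 (-1.53 to -0.33). Of the 13 cytokine receptor genes with enough UMIs 10 were higher and 3 lower, with a median of 0.15 (-0.30 to 0.68). Over all 4343 genes 55.8% were higher. The list had 9 genes higher and 4 lower in CD4 T cells, 6 and 7 in CD8 T cells, 12 and 2 in NK and ILC1 cells and 9 and 3 in B cells. It was thus not higher in members alone. Among the 13 genes in members, Il21r, the interleukin 21 receptor, had the highest ratio at 0.85 (0.48 to 1.26). Of the 7 tissue residency genes with enough UMIs 6 were higher and 1 lower, with a median of 0.40. Of the 5 chemokine receptor genes with enough UMIs 3 were higher and 2 lower, among the latter the retention receptor Cxcr4 at -0.78 (-1.21 to -0.36). Of the 7 circulation and quiescence genes with enough UMIs 4 were higher and 3 lower, with a median of 0.16. Among these, Klf2, a factor of circulating T cells, had -0.52 (-0.69 to -0.34) and Lef1 2.01.

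Proliferation genes were lower in the knockout library by the sum over members, and 3 wild-type cells carried most of this. Stmn1, a tubulin-binding protein of dividing cells, had 95 UMIs in 10 wild-type members and 21 UMIs in 14 knockout members, a log2 ratio of -2.88 (-3.69 to -2.24). Tuba1b, Tubb5 and Hmgb2, the first 2 of them tubulins and the last a chromatin protein, had ratios of -2.03, -1.59 and -1.48. Pclaf, a partner of the replication clamp, had 26 UMIs in 6 wild-type and 0 UMIs in knockout members and was at least 14.6-fold lower, with the 0 set at 3 counts over the group. The list median was -2.19 over 5 of 12 genes, also with Pclaf at that bound. The 3 richest wild-type cells held 78.2% of the list's 431 wild-type UMIs, and 1 of them is the cell with 711 neutrophil UMIs. The median was -1.36 without the richest cell and -0.47 (-1.17 to 0.25) without the 3. The list was also lower in the knockout library in CD8 T cells (0 genes higher and 11 lower, median -0.96), CD4 T cells (2 and 6, -0.78) and NK and ILC1 cells (2 and 10, -0.58). In B cells it was not lower (6 and 5, 0.011). Among members, the median number of list UMIs per cell was 2 in both libraries. Without the 5 richest members of each library Hmgb2 had a ratio of 0.20, and with members limited to 1 alpha-beta constant UMI Stmn1 and Tubb5 had 1.68 and 0.58 and the list median was 0.077.

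**Figure D5:**
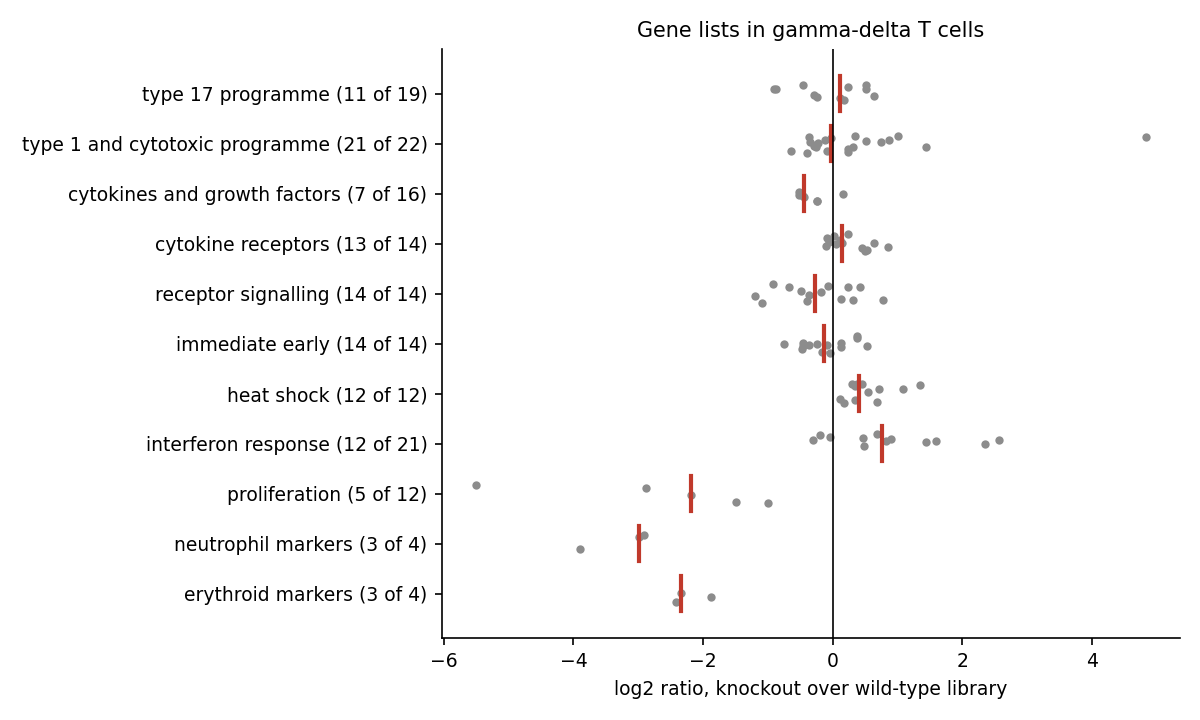
Log2 ratio of knockout over wild type in gamma-delta T cells for the genes of 11 lists with at least 20 UMIs (grey points, their number and the number with a row in the files beside each name). Red lines mark list medians. All 12 heat shock genes lie to the right of 0, the type 17 and type 1 lists lie on both sides, and the proliferation, neutrophil and erythroid genes lie to the left. Pclaf, at the far left, has 0 knockout UMIs, so its position depends on the added count.

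Members also held transcripts of other cell types, and their part in the results was not tested beyond the values given. Neutrophil markers summed to 4846 CPM in the wild type and 599 CPM in the knockout, with 711 of 1078 wild-type UMIs (66.0%) in 1 cell. Retnlg, a neutrophil hormone-like peptide and the lowest gene by the naming rule, had 149 and 16 UMIs and a log2 ratio of -3.90 (-4.82 to -3.23), or -2.20 without that cell. S100a8 and S100a9, which form a neutrophil calcium-binding complex, moved from -2.90 to -1.26 and from -2.98 to -1.64 without it. Erythroid markers stood at 508 and 93.2 CPM, among them Hbb-bs with a ratio of -2.41 (-3.32 to -1.69). Their median log2 ratio was also -2.19 in CD4 T, -1.65 in CD8 T, -2.45 in NK and ILC1 and -1.35 in B cells. The median of hepatocyte markers was 2.09, 1.47, 1.07 and 1.48 in these 4 kinds and 1.24 in members. Neither difference was thus particular to gamma-delta T cells. Hepatocyte markers stood at 121 and 266 CPM, macrophage markers at 706 and 743 CPM, endothelial markers at 139 and 154 CPM, mesenchymal markers at 67.4 and 61.3 CPM and dendritic cell markers at 247 and 405 CPM. Of the 6 B cell markers 4 had 0 UMIs in wild-type members and each had UMIs in knockout members. Dendritic cell markers other than H2-Aa and H2-Ab1 were at 0 in both libraries.

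The other genes lowest in the knockout library by the naming rule were Ddx60, Nav2, Pbrm1, Zyx and Carnmt1. Ddx60, an antiviral helicase, had a log2 ratio of -1.57 (-2.47 to -0.78), with 58.3% of its 36 wild-type UMIs in 1 cell, and its ratio was 0.55 among members without a Trac UMI. The ratios of Nav2, Pbrm1, Zyx and Carnmt1 lay between -1.30 and -1.22. Nav2 had -0.54 without Trac, Pbrm1 -0.23 with at most 1 alpha-beta UMI and Zyx -0.17 after thinning, and Nav2, Pbrm1 and Zyx overlap other genes. Of the 9 NK markers 6 had enough UMIs, 3 of them higher and 3 lower in the knockout library. Of these, 1 was at least 2-fold higher and 2 at least 2-fold lower, and the list median was -0.26 (-0.71 to 0.12). Klrb1c, the NK receptor NK1.1, had 28 UMIs in 9 wild-type and 15 UMIs in 12 knockout members, a ratio of -1.61 (-2.67 to -0.70), or -0.47 without the 5 richest members of each library. Zbtb16 had 32 UMIs in 14 wild-type and 111 UMIs in 29 knockout members, a ratio of 1.01 (0.46 to 1.65), which was 0.049 with at most 1 alpha-beta constant UMI per member, whereas in CD4 T cells its ratio was -1.82. With this few cells, fewer positive cells and less RNA per cell cannot be told apart in a summed level.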

How the data were processed

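Non-parenchymal liver cells of 1 wild-type and 1 knockout library were measured by droplet sequencing (Chromium 3′ v3, per the labels' protocols). The authors deposited raw UMI counts for each gene and barcode. Per the file headers, Cell Ranger 7.0.1 produced them, whereas the submitters' processing notes name Cell Ranger 3.1.0, Seurat and mm10. The treatment of intronic reads is not given in the sources used here.

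Summed UMIs of each kind of cell were scaled to CPM in Python 3.11.15 with numpy 2.4.6, scipy 1.17.1 and pandas 2.3.3. Levels have exact Poisson, shares Clopper-Pearson and ratios exact conditional 95% intervals, which cover counting error only. Genes needed 20 UMIs over the 2 groups compared. CD4 T cells had at least 2 Cd3 UMIs, 1 or more Cd4 UMIs and no Cd8 or Trdc UMI. CD8 T cells had at least 2 Cd3 and 2 Cd8 UMIs and no Cd4 or Trdc UMI. NK and ILC1 cells had Ncr1 and no Cd3 UMI, and B cells at least 3 UMIs over Cd79a, Cd79b and Ms4a1 and no Cd3 UMI.

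The genes named between libraries are the 10 highest and 10 lowest ratios among genes with a mean of 100 CPM or more whose level in members, in the library where it was higher, reached that of all other kept cells. The 15 genes against T cells and 10 against NK and ILC1 cells had the highest minimum ratio over both libraries. Gate, mitochondrial, ribosomal and haemoglobin genes were left out between libraries. The members and gene lists were chosen with earlier results of these data known. Doublets were not removed by the rule; Scrublet (scanpy 1.11.5) served as an alternative. Of 32285 gene identifiers 32158 (99.6%) occur in GENCODE M21 on GRCm38, used for positions and overlaps. Mx1 has no entry and was not used. Some genes are not reported here, and 1 of them was left out of the type 17 score, which moved no member across the score of 2.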

Additional observations from a re-analysis of the deposited data

How the results depend on the processing

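Alternatives changed the rule for members, the scaling, the depth, the UMI minimum or the cells included. Of 282 alternative values for shares, counts and lists 259 stayed within the interval of the reported value or 1.5 times the reported count, 22 moved further and 1 reversed. Of 1008 for single genes 873 stayed, 125 moved and 10 reversed. The cause was not tested. No paired analysis was possible because each genotype has 1 library. Leaving out members with 3 or more UMIs of 4 other lineages left 3 wild-type cells and 1 knockout cell and gave no value. The settings without a Trac UMI and without 1 or 3 wild-type members rich in neutrophil or proliferation genes were chosen after seeing the data.

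The number of genes at least 2-fold higher (319) and lower (169) was 166 and 91 with at most 1 alpha-beta constant UMI per member, which left 14 and 18 members. It was 1203 and 2291 with a minimum of 1 UMI, 105 and 24 with a minimum of 50, and 63 and 36 with members thinned to 1000 UMIs.

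With at most 1 alpha-beta UMI the list medians were -0.55 for immediate early, 0.077 for proliferation (reversed from -2.19) and -0.32 for tissue residency genes. Thinning gave -0.37 for immediate early and -0.71 for proliferation genes, and the mean of per-cell CPM gave -0.90 for proliferation genes. Without the 3 wild-type members richest in proliferation genes their median was -0.47. The share of members with the type 17 score was 78.6% and 61.1% with at most 1 alpha-beta UMI, and 57.9% in the knockout with a score of 1 or more. The type 17 median over CD8 T cells in the wild type was 5.23 with at most 1 alpha-beta UMI. Over NK and ILC1 cells it was 2.67 with at least 3 Trdc UMIs, 2.70 with a gamma constant UMI, 2.53 with the knockout thinned and 2.36 without Trac.

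Among genes, Il17a reversed to 0.49 (at most 1 alpha-beta UMI), 0.23 (Scrublet) and 0.36 (without the 5 richest members). Blk reversed to -0.58 on thinning and Ddx60 to 0.55 without Trac. Also without Trac, Dusp1 moved to -0.29 and Dnaja1 to 0.96, and without Ncr1 or Eomes Hmgb2 moved to -1.02. With at most 1 alpha-beta UMI Stmn1 was 1.68, Tubb5 0.58 and Hmgb2 0.077, and Hmgb2 was 0.20 without the 5 richest members and 0.081 without the 3 wild-type members richest in proliferation genes. Thinning moved Hspd1 to 0.74, Oasl1 to 3.22, Lef1 to 2.81, Cxcr4 to -0.22 and Il21r to 1.37, and Ccl5 ranged from 0.099 with a gamma constant UMI to 0.87 with at most 1 alpha-beta UMI.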
